A study of Mus musculus with 9 samples.

Results

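The genes described here are Krt5, Krt14 and Krt15, which encode the keratins of the basal layer of the epidermis, and Trp63, which encodes the transcription factor p63. They were measured in trunk epidermis taken from mice at birth. Of the samples, 4 carry the label Alox12b-KO and are called knockout below, after the gene of a lipoxygenase of the skin barrier, and samples labelled wildtype (5 arrays) are described as strain 129S6. The strain of the knockout samples and the part of the gene that was deleted are not given in the labels used here. All animals are described as offspring of heterozygous parents, and each array as a biological replicate. The platform was the Affymetrix Mouse Genome U430 2.0 array, on which a probe set is a group of short probes that together give 1 value, on a log2 scale, so that a difference of 1 means 2-fold. The members were all probe sets whose platform annotation names 1 of these genes and no other. They numbered 9 of 45037 probe sets in the table, namely 1 for Krt5, 3 for Krt14, 1 for Krt15 and 4 for Trp63, and all 9 were kept, since no filter on low values was used. As genes they are 4 of 18193.

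Keratins build the intermediate filaments of epithelial cells, and each filament pairs a type II keratin with a type I keratin. In basal keratinocytes keratin 5 (type II) pairs with keratin 14 or keratin 15 (both type I), and cells that leave the basal layer turn to keratins 1 and 10. p63, a relative of p53, maintains the basal layer and stratified epithelia, and the keratin 5 and keratin 14 genes are among its known targets. The form of p63 that prevails in the epidermis, ΔNp63, starts from a promoter inside the gene.

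The RefSeq promoter table (GRCm38.p6) held 2 of the 4 members. The Krt5 sequence is shown because Krt5 is the type II partner of both other keratins and 1 of the known p63 targets. It covers the 250 bases before the start of Krt5, at chr15:101712906-101713155 on the minus strand, written 5′ to 3′. Capitals mark matches to CACCC, a core bound by Krüppel-like factors, and to CNNG followed after 6 bases by a second CNNG, a loose form of the paired half-sites read by p53 and p63, each searched on both strands.
Krt5: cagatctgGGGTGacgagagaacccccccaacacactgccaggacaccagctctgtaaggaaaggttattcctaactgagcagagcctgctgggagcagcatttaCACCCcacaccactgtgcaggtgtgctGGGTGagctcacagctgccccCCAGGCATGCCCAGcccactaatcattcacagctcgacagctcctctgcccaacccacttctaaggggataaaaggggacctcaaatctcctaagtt
CACCC matched 3 times and the paired half-site once, 97 bases before the start, and these matches did not overlap. Of 32851 windows of this length, 52.0% held CACCC and 63.5% held the loose paired half-site, so both are common. Other motifs searched on both strands had no match in this window. These were TATAAA, held by 12.4% of all windows, GCCNNNGGC, held by 13.7%, TGANTCA, held by 6.75%, and GGGCGG, held by 32.7%. The window listed for Krt14 lies 1480 bases inside the span that RefSeq gives for that gene and is not printed. These matches describe letters only, and no binding was measured in these samples.

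None of the 9 probe sets passed an adjusted p of 0.05 in limma, where 1.11% of all probe sets did. At an unadjusted p under 0.05 the limma count was 4 of 9, against 9.28% of all probe sets lower at that level. All 4 were lower in knockout, namely 1 bright and 2 dim probe sets of Trp63 and that of Krt15. The groups did not overlap for 2 of 9, both of Trp63 and both lower in knockout, against 4.36% of all probe sets. In the fit over genes, with the brightest probe set standing for each, 0 of 4 members passed the adjusted threshold, where 1.24% of genes did. There 2 of 4, Trp63 and Krt15, were lower at an unadjusted p under 0.05, against 10.7% of genes. The median difference of the 9 probe sets, knockout minus wildtype, was -0.31, beside 0.03 over all probe sets. In whole tissue sheets a lower value from fewer basal cells and one from less RNA per cell cannot be told apart.

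Some facts of the arrays bear on all these values. Xist, which female cells express, had knockout values of 9.99 to 10.20, a value of 10.95 on wildtype array 4 and values of 3.23 to 4.32 on the remaining wildtype arrays, so sex and genotype almost coincide. Wildtype array 5 stood apart from the other wildtype arrays in the members and in several marker lists, and the members, the keratins and the counts of called list genes are given with and without it. It was singled out after these values had been seen. The probe set of Alox12b averaged 11.13 in knockout and 10.91 in wildtype, so its value does not show the loss that the label names. Neither the deleted part nor the position of the probes was known here, so the labels stand unchecked by it. That the tissue is epidermis was looked at through Krt1 and Krt10. Their values were 14.06 ± 0.05 and 14.17 ± 0.10 (SD, n = 4) in knockout and 14.02 ± 0.03 and 14.24 ± 0.04 (SD, n = 5) in wildtype. These lie near the top of the table at 14.46, where a probe set may no longer follow the RNA level.

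Trp63 showed the lowest knockout values relative to wildtype among the members. Its brightest probe set, 1418158_at, read 6.67, 6.36, 6.17 and 5.30 on knockout arrays 1 to 4 and 7.22, 7.05, 7.32, 7.49 and 8.65 on wildtype arrays 1 to 5. Every knockout array was below every wildtype array. Knockout array 4 was the lowest and wildtype array 5 the highest. The means were 6.12 ± 0.59 (SD, n = 4) and 7.54 ± 0.64 (SD, n = 5), a difference of -1.42 with an SE of 0.34, a 95% interval of -2.17 to -0.67, and 2.68-fold lower in knockout. The limma adjusted p was 0.0808, which missed the threshold, and 0.322% of all probe sets had a lower difference. Without wildtype array 5 the difference was -1.15 and the limma adjusted p 0.0586. With weights that count arrays by how well they fit, the difference was -0.98 and passed, at a limma adjusted p of 0.0312. With these weights 2511 of 45037 probe sets passed, against 498 without them. Weights were computed separately for probe sets and for genes. In the fit over genes knockout arrays 3 and 4 weighed 0.32 and 0.31, wildtype array 5 weighed 0.36 and knockout array 2 weighed 3.37.

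A second Trp63 probe set, 1459581_at, was dimmer and separated the groups as well. Its values were 3.68, 3.70, 2.84 and 2.92 on knockout arrays 1 to 4 and 4.73, 4.07, 3.91, 3.93 and 4.73 on wildtype arrays 1 to 5. The groups did not overlap, and knockout arrays 3 and 4 were the lowest. The difference was -0.99 with an SE of 0.25 and a limma adjusted p of 0.0951.

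The other Trp63 probe sets, of the kind that reads several transcripts of a gene (suffix _a_at), differed less. 1452027_a_at read 3.89, 3.48, 3.74 and 3.71 on the knockout arrays and 4.26, 4.06, 3.93, 3.97 and 3.87 on the wildtype arrays, which differ by -0.31 at a limma adjusted p of 0.242. Its groups overlapped only where knockout array 1 lay just above wildtype array 5. 1451876_a_at ran from 2.64 to 2.88 in knockout and from 2.66 to 3.21 in wildtype, with overlapping groups, a difference of -0.22 and a limma adjusted p of 0.424. Its mean over all arrays exceeded 41.0% of probe sets, so it was dim, and detection calls were not used here. Which p63 forms each probe set reads was not determined.

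Whether the Trp63 probe sets differed from each other was tested on the difference within each array. Between 1418158_at and 1451876_a_at that difference was 3.37 ± 0.54 (SD, n = 4) in knockout and 4.58 ± 0.57 (SD, n = 5) in wildtype. The shift of -1.20 had a two-sided exact permutation p of 0.00794, the smallest that the arrangements of 9 arrays allow, and an adjusted p of 0.0397 over 5 pairs of probe sets. Against 1452027_a_at the shift was -1.11, with an exact permutation adjusted p of 0.0595. Against 1459581_at, the other probe set whose groups did not overlap, it was -0.43, with an exact permutation adjusted p of 0.397. The dim probe sets were not shown to be above background, and a value near the bottom of the range cannot fall as far as a bright one, so these tests do not show that Trp63 transcripts changed unequally. The 5 pairs include those of Krt14. Without wildtype array 5, 3 of the 5 passed, each at an exact permutation adjusted p of 0.0476. They were Trp63 1418158_at against 1451876_a_at and 1452027_a_at, and Krt14 1423935_x_at against 1455573_at. Trp63 1418158_at against 1459581_at stayed at 0.4. Without any other single array 0 passed. In groups of 3 and 5 arrays, 1 pair alone could reach no less than 0.0893. In groups of 4 and 4 the smallest unadjusted p is 0.0286, so passing depended on how many pairs reached it.

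**Figure D1:**
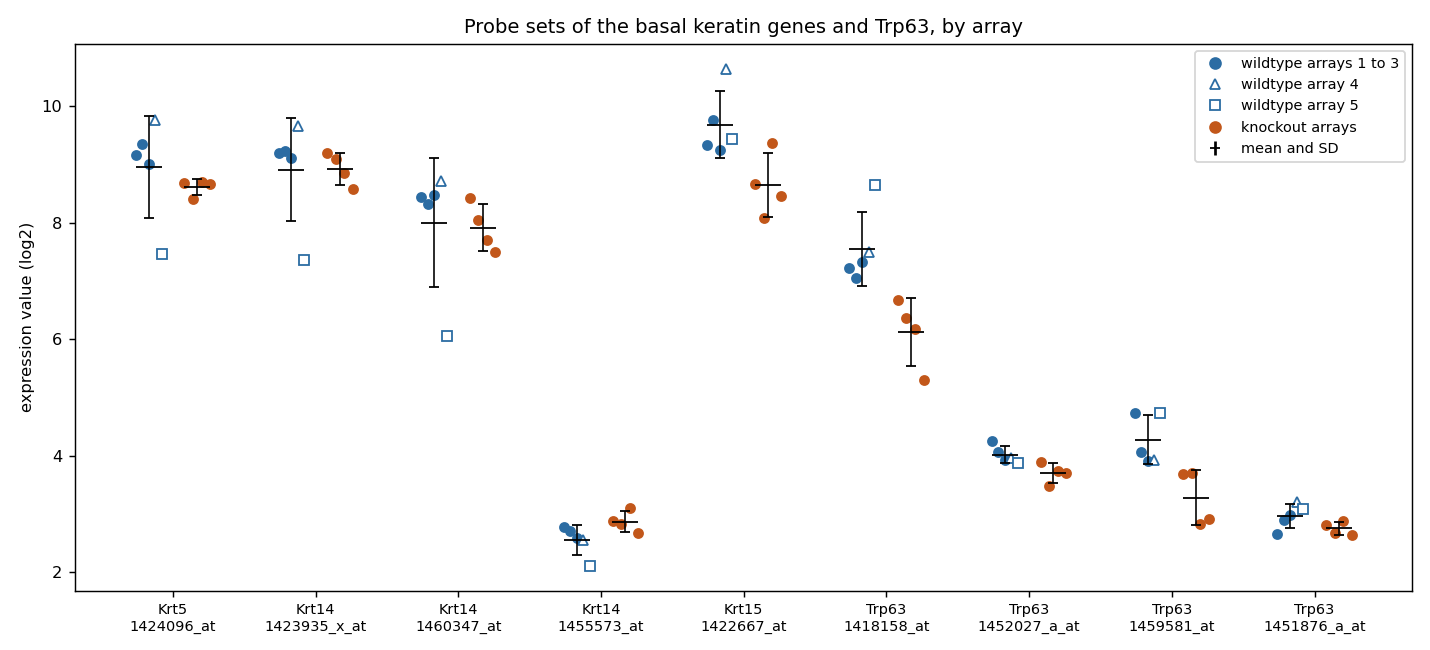
Expression value on the log2 scale (vertical axis) of the 9 probe sets of Krt5, Krt14, Krt15 and Trp63, with a point for each wildtype (blue) and knockout (orange) array and the mean and SD of each group in black. The groups are apart for Trp63 1418158_at and 1459581_at, and wildtype array 5 (square) is far below the other wildtype arrays for Krt5 and both bright Krt14 probe sets while it is the highest for Trp63 1418158_at.

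Krt15, the other type I keratin of the basal layer and a marker of hair follicle bulge cells, was also lower on most knockout arrays. It read 8.67, 8.08, 9.37 and 8.45 on knockout arrays 1 to 4 and 9.33, 9.76, 9.24, 10.64 and 9.43 on wildtype arrays 1 to 5. The groups overlapped through knockout array 3, which lay above wildtype arrays 1 and 3, and wildtype array 4 was the highest. Group means were 8.64 ± 0.54 (SD, n = 4) and 9.68 ± 0.57 (SD, n = 5). The difference was -1.04 with an SE of 0.31 and a 95% interval of -1.72 to -0.35, 2.05-fold lower in knockout, and the limma adjusted p of 0.149 missed the threshold. With array weights it was -1.32 and passed, at a limma adjusted p of 0.0166, where 2511 of 45037 probe sets passed. Knockout array 3, the source of the overlap, was among the least weighted in the fit over genes. Without knockout array 3 the difference was -1.28 and did not pass, at a limma adjusted p of 0.0855. Unlike the other bright basal keratins, Krt15 did not stand apart on wildtype array 5, which lay 0.31 below the mean of the other wildtype arrays (-0.31), against -1.85 for Krt5.

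Krt5, the type II partner of both type I keratins, had a narrow range in knockout and a wide one in wildtype. Its 1 probe set, 1424096_at, read 8.68, 8.41, 8.70 and 8.66 on the knockout arrays and 9.17, 9.35, 9.001, 9.76 and 7.47 on wildtype arrays 1 to 5. Wildtype arrays 1 to 4 were all above all knockout arrays, and wildtype array 5 was below them all. The means of 8.61 ± 0.14 (SD, n = 4) and 8.95 ± 0.87 (SD, n = 5) differed by -0.34, with an SE of 0.37, a 95% interval of -1.15 to 0.47 and a limma adjusted p of 0.670. Without wildtype array 5 the wildtype mean was 9.32 ± 0.33 (SD, n = 4), the difference was -0.71 with an SE of 0.16, and the limma adjusted p was 0.0709. The direction was the same in both fits, while the size rested on 1 array.

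Krt14, which pairs with keratin 5, had 2 bright probe sets that followed each other across the arrays. 1460347_at read 8.42, 8.04, 7.70 and 7.50 on knockout arrays 1 to 4 and 8.44, 8.31, 8.47, 8.72 and 6.05 on wildtype arrays 1 to 5. 1423935_x_at, of a less specific kind whose probes can also match other transcripts, read 9.19, 9.08, 8.85 and 8.58 in knockout and 9.20, 9.23, 9.11, 9.65 and 7.36 in wildtype. Both put knockout array 4 lowest within knockout and wildtype array 5 lowest of all 9, and the groups overlapped. Their differences were -0.09 with a 95% interval of -1.13 to 0.96 and 0.01 with one of -0.83 to 0.86, at limma adjusted p values of 0.944 and 0.990. Changes of up to about 2-fold either way lie within these intervals. Without wildtype array 5 the differences were -0.57 and -0.37, at limma adjusted p values of 0.206 and 0.351, so the sign of 1423935_x_at turned. The third Krt14 probe set, 1455573_at, was dim, with knockout values of 2.68 to 3.10 and wildtype values of 2.11 to 2.79. It had a difference of 0.32 in the other direction and a limma adjusted p of 0.325.

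Without wildtype array 5, 7 of the 9 probe sets were at an unadjusted p under 0.05 in limma, all 7 lower in knockout, against 8.48% of all probe sets lower at that level. Of the 9, 4 then lay lower without overlap, against 5.41% of all probe sets, namely Krt5 and the Trp63 probe sets other than 1451876_a_at. None passed the limma adjusted threshold, against 1.39% of all probe sets. Wildtype array 5 was singled out after its values in these members were seen. Leaving out a wildtype array that was low for Krt5 and Krt14 lowers their differences by itself. Several of the 7 probe sets read the same gene and are not separate observations, so these counts are no separate support. On wildtype array 5 Krt5 was 3.61-fold below the mean of the other wildtype arrays, Krt14 5.42-fold below by 1460347_at, and Trp63 2.60-fold above by 1418158_at. Over all probe sets, 4.76% were at least 1 log2 unit away from that mean on this array.

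**Figure D2:**
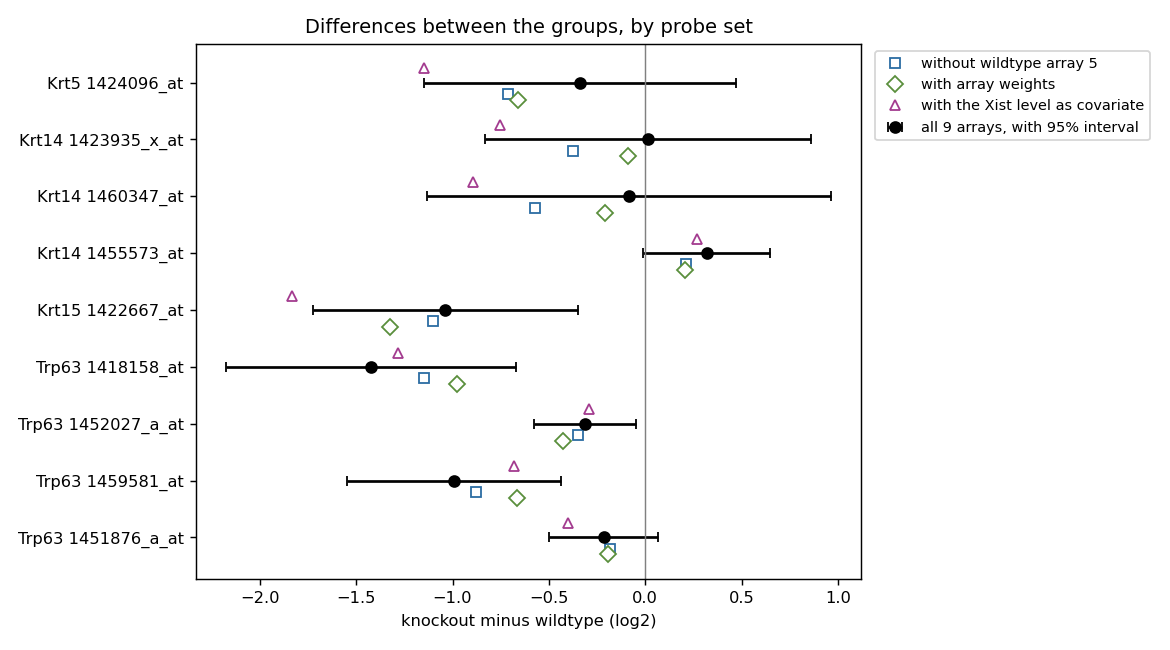
Difference between the groups, knockout minus wildtype on the log2 scale (horizontal axis), for each probe set, with the 95% interval of the limma fit on all 9 arrays (black) and the value without wildtype array 5 (squares), with array weights (diamonds) and with the Xist level as covariate (triangles). The 4 Trp63 probe sets and Krt15 are below 0 under each of these, Krt5 goes from -0.34 to -0.71 without wildtype array 5, and Krt14 1423935_x_at changes sign.

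With the Xist level as a covariate, where the comparison rests mostly on wildtype array 4, differences were -1.28 for Trp63 1418158_at, -1.83 for Krt15, -1.15 for Krt5 and -0.89 for Krt14 1460347_at. Their limma adjusted p values were 0.704, 0.224, 0.691 and 0.885. Krt5, Krt14 and Krt15 were each highest on wildtype array 4 among all 9 arrays. Without wildtype arrays 4 and 5, an alternative chosen after the data had been seen, the differences were -1.07 for Trp63, -0.80 for Krt15, -0.56 for Krt5 and -0.49 for Krt14 1460347_at. Effects of sex and of genotype on these genes cannot be told apart here.

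How the members varied within the groups was examined on values minus the group mean over the 9 arrays, in 6 pairs of genes. Krt5 and Krt14 went together, with Pearson's r of 0.94 (exact permutation p = 0.00292, adjusted 0.0175) and Spearman's rho of 0.87 (exact permutation, adjusted 0.0271). Without the arrays farthest from the median of Krt5, wildtype arrays 4 and 5, r was 0.33, so the relation rests on those arrays. Krt5 and Trp63 had an r of -0.69 (exact permutation p = 0.0485, adjusted 0.146), and without wildtype array 5 it was 0.06. Krt14 and Trp63 went from -0.53 to 0.82 and Krt5 and Krt15 from 0.48 to 0.88 when that array was left out. None of the pairs but Krt5 with Krt14 passed the adjusted threshold, and 2 pairs had an unadjusted exact permutation p under 0.05 for Pearson's r. Krt15 and Trp63, the genes with the largest differences between the groups, had an r of -0.03 within them.

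The genes most like each member over the 9 arrays, by Pearson's r among genes with a mean of at least 6, were given as a description. For Krt5 they were the MHC class II genes H2-Aa, H2-Ab1 and H2-Eb1, which antigen-presenting cells such as Langerhans cells express, at r of 0.98, 0.98 and 0.96. Without wildtype array 5 these were 0.95, 0.94 and 0.89. H2-Aa read 6.23 on wildtype array 5, 9.86 on wildtype array 4 and 7.83 to 8.14 in knockout, the same order of extremes as Krt5. For Krt14 they were Cox5b and Ndufv2, subunits of the respiratory chain, and the nuclear pore gene Nup214, at 0.98, 0.96 and 0.97. For Krt15 they were Ppm1l, Nckipsd and Inpp5k, at 0.95, 0.94 and 0.94, and for Trp63 the helicase gene Ddx42, the mitochondrial ribosomal gene Mrps2 and Nudt3, each at 0.99. Of these 12 genes none passed an adjusted p of 0.05 between the groups in limma, and the likeness was chosen among 5077 genes, so high values of r arise in any such search.

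**Figure D3:**
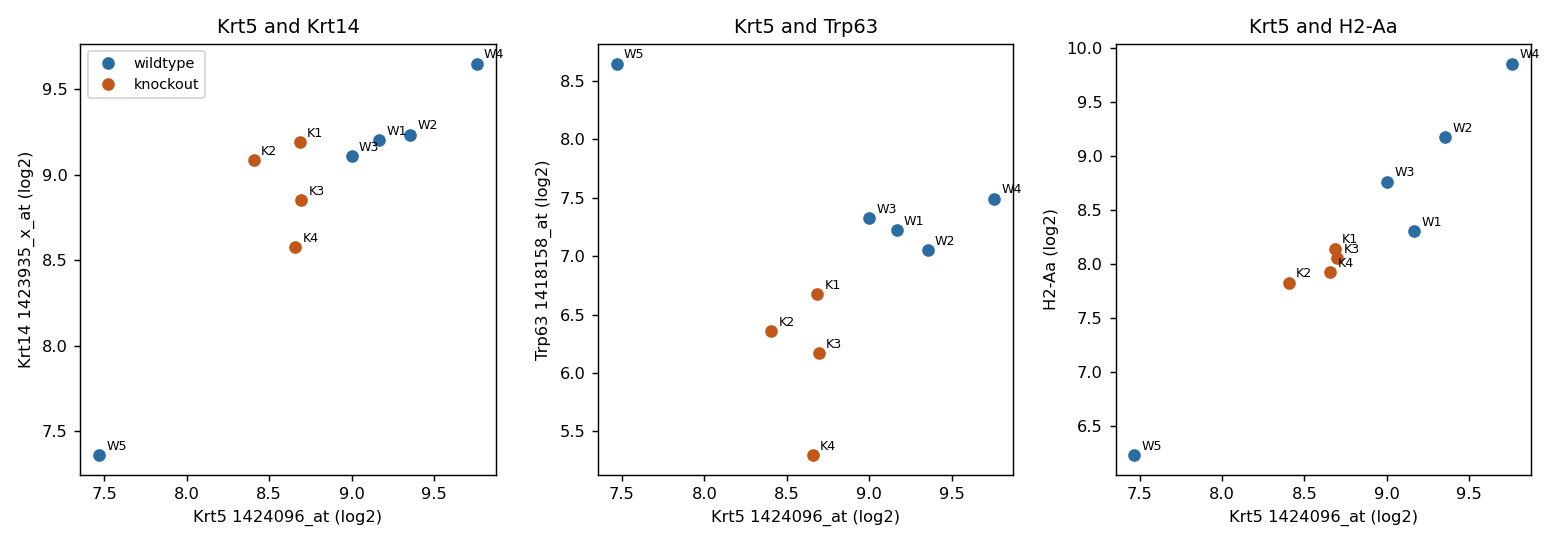
Values on the log2 scale of Krt14 1423935_x_at, Trp63 1418158_at and H2-Aa (vertical axes) against Krt5 (horizontal axis), with a point for each array, W for wildtype and K for knockout with the replicate number. Wildtype array 5 is lowest for Krt5, Krt14 and H2-Aa and highest for Trp63, and wildtype array 4 is highest for Krt5, Krt14 and H2-Aa.

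Among 48 keratin genes measured, no gene passed the adjusted threshold in limma. At an unadjusted p under 0.05, 8 were lower and 3 higher, against 10.7% of all genes lower. The median difference was -0.16, beside 0.02 over all genes, and 30 of 48 differences were negative. Of the 48, 4 passed without wildtype array 5, all lower in knockout, where 281 of 18193 genes passed. These were Krt79 at -1.72 (limma adjusted p 0.00378), Krt77 at -1.40 (0.00995), Krt17 at -0.78 (0.0178) and Krt73 at -0.92 (0.0414). Krt77 and Krt79 also passed with wildtype arrays 4 and 5 both left out. In order from the lowest, Krt15 was number 4, Krt5 number 18 and Krt14 number 31. Krt79, a keratin of the follicle opening and sebaceous duct, had the lowest difference, at 8.13 ± 0.33 (SD, n = 4) against 9.51 ± 0.83 (SD, n = 5). Krt77, a keratin of the upper epidermis and sweat ducts, had a difference of -1.16. Krt16, which injured and hyperproliferative epidermis induces, had the highest, at 9.15 ± 2.14 (SD, n = 4) against 5.93 ± 1.72 (SD, n = 5). Krt16 read 3.31 on wildtype array 5 and Krt6b 4.86, each the lowest of the 9 arrays, and the limma adjusted p was 0.161 and 0.126. Krt1 and Krt10, the pair that replaces keratins 5 and 14 above the basal layer, differed by 0.03 and -0.07. Both lie near the top of the table, where a probe set may no longer follow the RNA level, so these values do not show that the pair was steady.

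**Figure D4:**
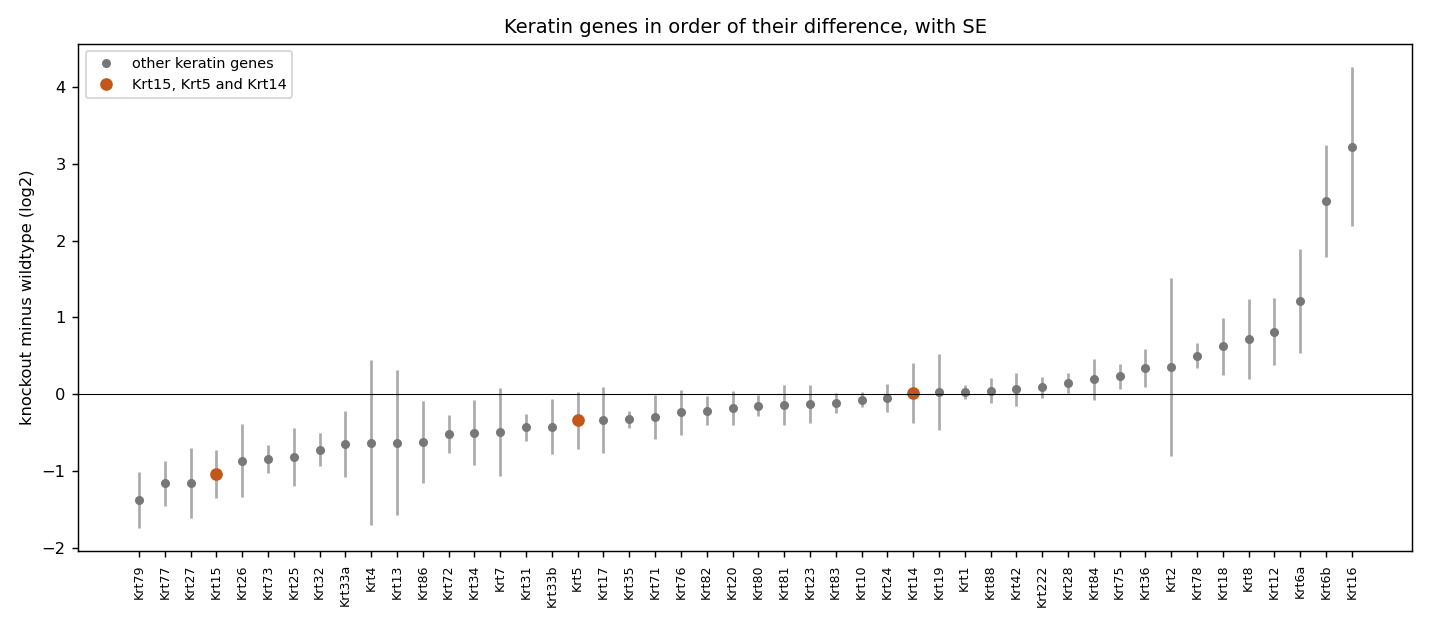
Difference between the groups, knockout minus wildtype on the log2 scale (vertical axis), for 48 keratin genes in order of that difference (horizontal axis), with the SE of the limma fit. Krt15 is number 4 from the lowest, Krt5 number 18 and Krt14 number 31.

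Genes that work beside the members were taken from lists. Of 14 measured genes for attachment of the basal layer and other basal functions, 1 was called lower and 0 higher, and the list median was -0.15. The called gene was Plec, which encodes plectin, the linker between keratin filaments and hemidesmosomes. It read 8.43, 8.35, 8.08 and 8.06 on the knockout arrays and 8.85, 8.95, 8.65, 8.88 and 8.79 on the wildtype arrays, a difference of -0.59 at a limma adjusted p of 0.0440. The groups did not overlap, and wildtype array 5 did not stand apart. Plec passed in 3 of 19 alternatives, namely array weights, a mean of at least 5 and the omission of knockout array 1. Its probe set is of a less specific kind, and without such probe sets Plec had a difference of -0.28 and a limma adjusted p of 0.328. Its limma adjusted p without wildtype array 5 was 0.0549, and then 0 genes of the list passed. Dst, which encodes the plakin BPAG1 that also anchors keratin 5 and 14 filaments, read 6.37 to 6.71 in knockout and 6.83 to 8.32 in wildtype, at -1.19 and a limma adjusted p of 0.0523. Dst passed with array weights, a mean of at least 5, trend and robust settings, and without wildtype array 3 (limma adjusted p 0.00428). It also passed with the mean of its probe sets as its value, at -0.65. Col17a1, the hemidesmosome collagen, read 5.08 against 5.97, at a limma adjusted p of 0.115. In this list 6 genes were lower and 1 higher at an unadjusted p under 0.05, against 10.7% of all genes lower.

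Of 11 measured relatives and regulators of p63, 0 passed in limma, with all arrays or without wildtype array 5, and the median was -0.11. At an unadjusted p under 0.05, 3 were lower and 0 higher, against 10.7% of all genes lower. Nedd4, a ubiquitin ligase, read 7.43 against 8.09 with a limma adjusted p of 0.0725 and no overlap. Tfap2a, which encodes the AP-2α factor of keratinocytes, read 6.89 against 7.60 with a limma adjusted p of 0.266. Tfap2a read 8.68 on wildtype array 5, where Trp63 was also highest, and 7.17 to 7.48 on the other wildtype arrays.

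Of 22 measured genes reported as p63 targets, 0 passed in limma, and the median was -0.08. At an unadjusted p under 0.05, 6 were lower and 3 higher, against 10.7% of all genes lower. Dst, Col17a1, Itga3, Itgb4 and Fgfr2 are also in the basal list, so the counts of these lists are not separate. The largest differences were in Dsc3, the desmosomal cadherin of the lower epidermis, and in Dst. Dsc3 read 9.43, 9.15, 8.19 and 7.39 on the knockout arrays and 9.59, 9.67, 9.50, 10.04 and 11.01 on the wildtype arrays, with a limma adjusted p of 0.136. Its extremes were those of Trp63 1418158_at, namely knockout array 4 and wildtype array 5. In the other direction Runx1 had the largest difference, 0.75, with no overlap and a limma adjusted p of 0.0719. Itga3 was higher by 0.28, at a limma adjusted p of 0.248. Cdkn1a, the cell cycle inhibitor p21 that p63 represses, was higher by 0.67, with a limma adjusted p of 0.0759. It read 11.37 to 11.52 in knockout and 10.55 to 11.32 in wildtype. Wildtype array 5 gave that 11.32, and without it the Cdkn1a difference was 0.81 and passed, at a limma adjusted p of 0.00477. Hes1, a Notch target, then passed as well, at -0.78 and a limma adjusted p of 0.0494, so 1 gene of the list was called higher and 1 lower. The list mean was 7.04 to 7.11 in knockout and 7.19 to 7.56 in wildtype. The list was not sorted by whether p63 raises or lowers a gene, so its median and mean do not measure p63 activity. Of 14 suprabasal keratins and differentiation genes 0 passed in limma, and the median was -0.05. At an unadjusted p under 0.05, 3 were lower and 2 higher, against 10.7% of all genes lower. Without wildtype array 5, 2 of them passed, Krt77 and Krt79, both lower in knockout.

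**Figure D5:**
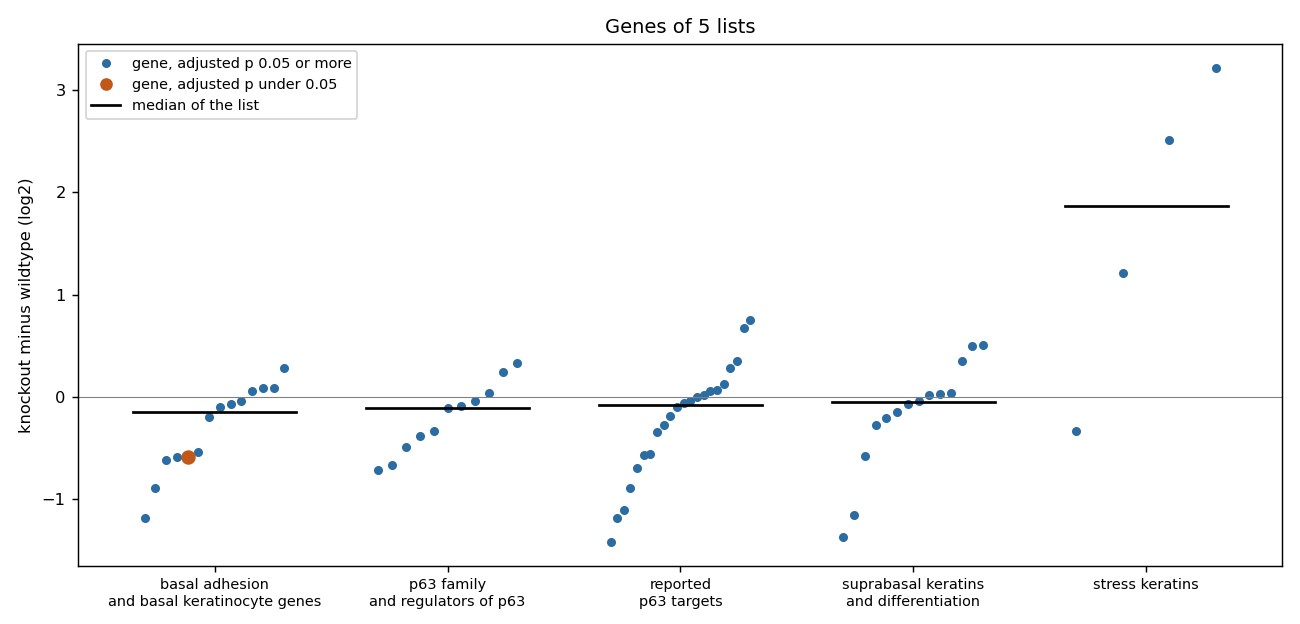
Difference between the groups, knockout minus wildtype on the log2 scale (vertical axis), for each measured gene of 5 lists (horizontal axis), with the list median as a black bar. Plec, in the basal list, is the only gene of these 5 lists with an adjusted p under 0.05, in the fit on all 9 arrays, and the medians of the first 4 lists lie between -0.15 and -0.05.

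Markers of other cells moved on some of the arrays that stand apart for the members, and their part in the values above was not tested. On wildtype array 5 the mean of 8 Langerhans cell and macrophage markers was 4.07, against 5.13 to 6.33 on the other wildtype arrays and 5.03 to 5.44 in knockout. The mean of 8 melanocyte markers was 3.39 there, against 4.42 to 4.64 and 4.40 to 5.07. The mean of 4 stress keratins was 4.82 there, against 7.01 to 8.42 and 7.36 to 9.58, and of 9 outer sheath and bulge markers, which bear on Krt15, 3.53 against 4.00 to 4.13 and 3.95 to 4.60. On knockout array 4, the lowest knockout array for Trp63 1418158_at and for Krt14, the mean of 7 fibroblast markers was 9.32 and of 7 smooth muscle markers 5.81, the highest of the 9 arrays in both. Without knockout array 4 the difference was -1.15 for Trp63 1418158_at and 0.05 for Krt14 1460347_at. Of 15 hair shaft and inner sheath markers 0 passed in limma, with means of 4.60 to 5.50 in knockout and 5.11 to 5.73 in wildtype. In this list 5 were lower at an unadjusted p under 0.05, against 10.7% of all genes. Without wildtype array 5, Krt73 of this list passed, and so did Krt17 of the stress keratins, both lower in knockout. Trichohyalin (Tchh), a protein of the inner root sheath, had a difference of -1.36 with overlapping groups and a limma adjusted p of 0.0556, and the inner sheath keratin Krt27 one of -1.16.

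In the lists of markers of other cells, apart from those of stress keratins and hair shaft, no gene passed in limma. This held with all arrays and without wildtype array 5. The adipocyte list had the lowest median, -1.69, with Adipoq at -3.06 and Retn at -1.76, and its mean ran from 4.39 to 5.24 in knockout and from 4.36 to 8.96 in wildtype. The fibroblast list had a median of 0.37, and of -0.044 without wildtype array 5, with Lum at 0.91 and Col1a2 at 0.52, and the smooth muscle list one of 0.68, with Tagln at 1.20 and Acta2 at 0.98. Lum read 8.15, Tagln 7.28 and Acta2 9.19 on knockout array 4, each the highest of all arrays. On the other knockout arrays Tagln read 3.54 to 4.35 and Acta2 4.86 to 5.18. Among markers of other epithelial cells, the simple epithelial keratins Krt8 and Krt18 had differences of 0.71 and 0.63, and the bulge genes Cd34 and Tcf7l1 of 0.66 and 0.46. Melanocyte genes Pmel and Tyrp1 had 0.60 and 0.50, the antigen presentation genes H2-Aa and Cd74 -0.48 and -0.38, the embryonic and perinatal myosins Myh3 and Myh8 0.25 and -0.24, and the endothelial genes Cdh5 and Tek -0.18 and 0.11.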

How the data were processed

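Values were used as the authors deposited them, in 1 log2 table of 45037 probe sets by 9 arrays. Their range, 1.43 to 14.46, is that of a log2 scale. Per the submitters' processing notes affy was used, and background correction and normalization are not given in the sources consulted. Array medians lay between 3.14 and 3.31. Precision is limited by the number of arrays.

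Platform annotation named 1 gene for 34945 probe sets. The highest mean over all arrays chose the probe set of each of 18193 genes. Differences are knockout minus wildtype from limma 3.58.1, run in R 4.3.3 with genotype as the only term of lmFit and eBayes, and Benjamini-Hochberg adjustment over all probe sets or all genes and a threshold of 0.05. Within-array differences and relations were tested with exact permutation. The fit was tested on simulated data.

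The members and lists were chosen with earlier results of these data known. Named genes were the members, every called gene of a list and its 2 largest differences, the keratins at both ends and the 3 genes most like each member. Cdkn1a, Runx1, Itga3 and other markers were chosen after their values were seen. Deviations of arrays with the same replicate number correlated between -0.21 and 0.18. Arrays with different numbers were not set beside them, so this does not settle whether the numbers pair the arrays. A replicate block was run as an alternative.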

Additional observations from a re-analysis of the deposited data

Results flagged for a closer look

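Values that stood far from the rest of their group, by Dixon's ratio of the gap to the range, numbered 4 in 18 groups of arrays looked at, where chance gives about 1 in 20 groups. Of these, 3 were on wildtype array 5, namely Krt14 at 6.05 by 1460347_at and at 7.36 by 1423935_x_at, both the lowest, and Trp63 at 8.65 by 1418158_at, the highest. Krt5 at 8.41 on knockout array 2 was the fourth, in a group whose other arrays read 8.66 to 8.70. The 2 Krt14 probe sets read the same gene and are not separate observations.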

How the results depend on the processing

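Trp63, Krt15 and Krt5 kept the sign of their differences under all 17 alternatives run for 1418158_at, 1422667_at and 1424096_at, with ranges of -1.60 to -0.98, -1.83 to -0.80 and -1.15 to -0.14. No probe set of the members passed the adjusted threshold under 16 of 17 alternatives, and no member gene under 18 of 19. With array weights 2 probe sets and 2 genes passed, Trp63 and Krt15, where 2511 of 45037 probe sets and 1644 of 18193 genes passed. Krt14 1423935_x_at reversed from 0.01 to -0.37 with the replicate block, -0.028 with median centring, -0.091 with array weights, -0.76 with the Xist covariate and -0.26 without wildtype arrays 4 and 5, and with each array left out it ran from -0.37 to 0.20. Krt14 1460347_at reversed to 0.019 with quantile normalization and ran from -0.57 to 0.10 with each array left out. As the gene's value, without less specific probe sets, it gave -0.085. The cause was not tested.

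The replicate block removes wildtype array 5 from the comparison, since number 5 is in wildtype only. It gave -1.15 for Trp63 and -1.10 for Krt15, and 0 members passed. Called genes of all lists numbered 1, and 4 with the replicate block, 0 with median centring, 3 with a mean of at least 5, 2 with trend and robust settings, 20 with array weights, 0 with the Xist covariate, 3 without wildtype arrays 4 and 5 and 0 without less specific probe sets. With each array left out they numbered 0 to 6. These were not the same genes throughout, and Plec, the 1 gene called with all arrays, passed in 3 of 19 alternatives. Over all probe sets the called number was 498, and 2511 with array weights, 18 with the Xist covariate, 320 without wildtype arrays 4 and 5 and 142 to 626 with each array left out. Over all genes it was 226, and 119 with the replicate block, 1644 with array weights, 9 with the Xist covariate, 115 without wildtype arrays 4 and 5 and 62 to 281 with each array left out. The omission of wildtype arrays 4 and 5 together was chosen after seeing the data. Pairs of probe sets past the threshold numbered 0 to 3 with each array left out.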

Other observations

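1 probe set, 1427841_at, is annotated to both Krt17 and Krt14 and was not counted among the members. It read 3.01 to 3.47 on the knockout arrays and 2.71 to 3.28 on the wildtype arrays, and wildtype array 5 was again the lowest.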
